A study of Mus musculus with 8 samples.

Results

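The expressed Zfp genes are the mouse genes named Zfp with a number, which encode proteins with zinc fingers. They were taken as the protein-coding genes whose symbol is Zfp followed only by digits, without Zfp292, which were selected on their measured level, a mean over all 8 samples of at least 5 CPM (read counts scaled to 1e6 counts per sample). This rule gave 288 of the 54532 genes counted. Of the 364 protein-coding genes with such a name, 76 fell under the limit. RNA-seq of whole mouse retina compared 4 Mettl3-CKO samples, from Six3-Cre+; Mettl3 floxed/floxed mice, with 4 control samples. The labels give the age as postnatal day 7 for every sample, while the study's methods name a day earlier. The labels describe the controls only as control, and neither the labels nor the methods say how many pups gave each sample, so p-values measure the spread between these samples. Six3-Cre deletes Mettl3 in retinal progenitor cells from early eye development, and the study saw the protein lost in the central retina, whereas the RNA came from retinas described without a region.

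Most Zfp proteins carry a row of C2H2 fingers, small folds in which a pair of cysteines and a pair of histidines hold a zinc ion and which read DNA in register, finger by finger. Many of them also carry a KRAB box, which binds the corepressor TRIM28. TRIM28 brings in the histone methyltransferase SETDB1 and heterochromatin proteins, and the bound DNA, often a retrotransposon, is silenced through H3K9 methylation. Others act without KRAB, for instance through a SCAN domain that pairs such proteins, or bind RNA. METTL3 is the catalytic subunit of the complex that writes m6A, the methyl mark on adenosines within mRNA. The mark is known to collect near stop codons and in long exons, and it often speeds the decay of the transcript.

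The libraries held between 16227095 and 20281517 counts each. In these 3 counts corresponded to between 0.148 and 0.185 CPM, so all 288 genes lay well above the counting floor. Mettl3 measured 24.1 ± 3.97 CPM (SD, n = 4) in Mettl3-CKO and 31.2 ± 2.24 CPM (SD, n = 4) in control, with Mettl3-CKO replicate 2 inside the range of the controls, and it did not pass the test (log2 fold change -0.38, standard error 0.12, edgeR adjusted p = 0.0602). Rod markers, which define most cells of the retina, were present in every library at summed levels of 1737 to 4823 CPM over 10 genes. Of these 10 genes 5 were called lower in Mettl3-CKO by edgeR and 0 higher, where 4.05% and 6.49% of all genes tested were. Summed lens markers reached 3524 CPM in control replicate 4 and at most 69.0 CPM in any other library. The part of lens tissue in the results below was not tested, and the main counts of Zfp genes are also given without control replicate 4. Control replicate 1 stood apart from the other controls over all genes, with a chi-square of 23.6 to 41.2 per gene against them, where the other 3 controls differed from each other by 5.01 to 14.7 per gene. In bulk samples fewer cells of a type and less RNA per cell cannot be told apart.

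Every Zfp gene that passed the edgeR test was higher in Mettl3-CKO. Of the 288 genes, 29 were higher in Mettl3-CKO and 0 were lower at an edgeR adjusted p under 0.05, a share of 10.1% higher. Over all 17998 genes tested, 6.49% were called higher and 4.05% lower. Among the 11642 protein-coding genes at 5 CPM or more, the share was 8.05% higher and 4.67% lower. The median log2 fold change of the Zfp genes was 0.076, against -0.012 over all genes tested, and 192 of the 288 values (66.7%) were above 0, against 48.2% of all genes tested. The values ran from -0.43 to 1.18. The controls alone had medians over the family from -0.088 to 0.082 on the log2 scale, a span wider than the family's median change. A rule on the mean of both groups can admit a gene only through the group in which it is high, and 6 genes reached 5 CPM only in the Mettl3-CKO mean and 1 only in the control mean. The 6 were Zfp992, Zfp108, Zfp442 and Zfp976, which were called, and Zfp69 and Zfp759, which were not. Among the 281 genes at 5 CPM or more in both means, 25 were called higher and 0 lower. At an unadjusted p under 0.05, 62 genes were higher and 10 lower, where 13.5% and 11.1% of all genes tested were.

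The count depended on the test and on single libraries. DESeq2 called 36 Zfp genes higher and 1 lower, with 8.0% and 5.48% of its genes called, and limma's voom with sample weights called 55 higher and 6 lower, with 11.9% and 8.71% of all genes called. All 29 genes called by edgeR were among those called higher by each. The gene that DESeq2 called lower was Zfp263, which voom also called together with Zfp112, Zfp236, Zfp395, Zfp653 and Zfp773. Leaving out a library gave 11 genes called higher without Mettl3-CKO replicate 1 and also without control replicate 2, 18 without Mettl3-CKO replicate 3, 19 without Mettl3-CKO replicate 4, 17 without control replicate 4 and 47 without control replicate 1. Without control replicate 1, 4 genes were called lower, and in the other 7 such fits 0 were. The shares of all genes called in these 8 fits are not given here. A change in the count particular to Zfp genes thus cannot be told from a change over all genes. The genes called in all 8 of these fits were 11, namely Zfp992, Zfp108, Zfp697, Zfp442, Zfp748, Zfp850, Zfp467, Zfp451, Zfp579, Zfp62 and Zfp386.

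**Figure D1:**
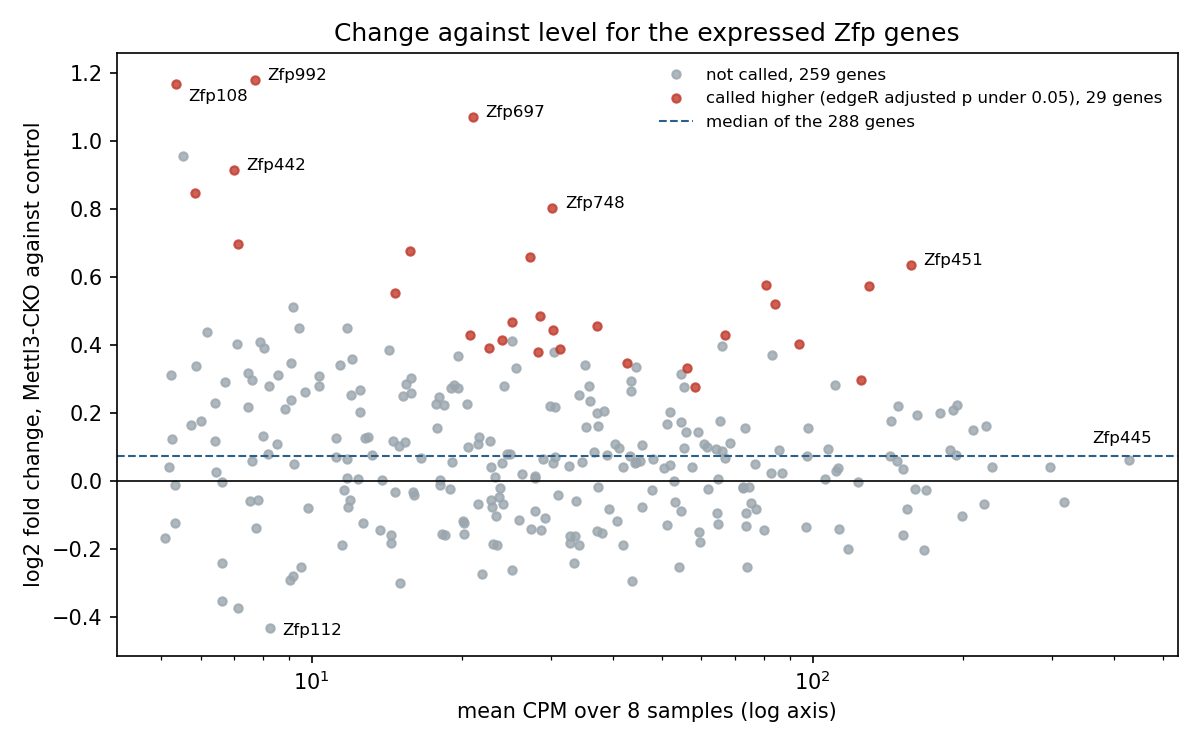
Each point is 1 of the 288 expressed Zfp genes, with the mean CPM over 8 samples on a logarithmic horizontal axis and the log2 fold change of Mettl3-CKO against control on the vertical axis. The 29 genes called higher (red) lie at mean levels from 5.35 to 157.0 CPM, with 17 of the other genes above that range, no gene was called lower by edgeR, and the dashed line marks the median of 0.076.

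Of the 10 called genes with the largest rises, 7 encode KRAB zinc fingers, where 57.6% of all 288 Zfp genes and 55.2% of the 29 called ones do. In the controls 7 of the 10 stood under 15 CPM. Among these Zfp992, Zfp108, Zfp442 and Zfp976 passed the limit of 5 CPM only through their Mettl3-CKO mean. Their low control levels and large rises thus follow in part from the rule. Values by sample are CPM after TMM scaling, given for replicates 1 to 4. Zfp992 (chromosome 4, 146449023 to 146470292, GRCm38) measured 11.8, 8.87, 9.77 and 12.4 CPM in Mettl3-CKO and 5.30, 3.12, 5.25 and 5.20 CPM in control. Every Mettl3-CKO sample was above every control, and control replicate 2 was the lowest of all. The log2 fold change was 1.18 (standard error 0.19, adjusted p = 0.00239 in edgeR's quasi-likelihood test), a 2.27-fold rise. Zfp992 shares a nearly identical coding stretch with its neighbour in name Zfp991 (at least 150 bases at 98% identity or more), so reads could have been assigned between them. Zfp991 had a log2 fold change of 0.31 and was not called.

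Zfp108 (chromosome 7, 24254794 to 24262445) measured 8.96, 5.16, 7.86 and 7.67 CPM in Mettl3-CKO and 3.48, 2.45, 2.62 and 4.65 CPM in control. Its groups did not overlap, though Mettl3-CKO replicate 2 came close to control replicate 4. The log2 fold change was 1.17 (standard error 0.23, edgeR adjusted p = 0.00792). Both genes were under 5 CPM in the control mean, at 4.72 CPM for Zfp992 and 3.30 CPM for Zfp108, and entered the family only through their level in Mettl3-CKO. Per length, their control levels were 1.03 and 1.21 FPKM (CPM divided by gene length in kilobases), below the median of 6.38 FPKM over all Zfp genes and samples.

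Zfp697 (chromosome 3, 98382461 to 98753812), whose predicted protein had 11 fingers and no KRAB box, measured 33.2, 28.9, 26.2 and 25.4 CPM in Mettl3-CKO and 12.2, 12.1, 15.1 and 14.6 CPM in control. The lowest Mettl3-CKO sample lay well above the highest control. The log2 fold change was 1.07 (standard error 0.12, edgeR adjusted p = 0.000414), which was the smallest adjusted p among the Zfp genes. A change under 2-fold was measured for 26 of the 29. Among the 281 genes at 5 CPM or more in both group means, Zfp697 was the 1 gene that more than doubled.

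Zfp442 (chromosome 2, 150407141 to 150451486), a KRAB gene with 17 fingers, rose from 4.84 ± 0.53 CPM in control to 9.16 ± 1.32 CPM in Mettl3-CKO (SD, n = 4 in each), a log2 fold change of 0.92. This gene and Zfp976 also entered only through the Mettl3-CKO mean. Zfp442 shares a near-identical coding stretch with 3300002I08Rik. Zfp976, another KRAB gene, rose from 4.18 ± 1.29 to 7.54 ± 1.16 CPM (log2 fold change 0.85, edgeR adjusted p = 0.0216). Control replicate 1 of Zfp976, at 6.10 CPM, stood near the lowest Mettl3-CKO sample, at 6.59 CPM, and the other controls measured 3.43 to 3.67 CPM. The call for Zfp976 was kept in 4 of the 8 fits that left out a library, with log2 fold changes between 0.74 and 1.09.

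Zfp748 (chromosome 13, 67538641 to 67553830), a KRAB gene with 23 fingers, measured 43.0, 33.2, 40.1 and 37.8 CPM in Mettl3-CKO and 21.7, 19.4, 21.8 and 25.4 CPM in control. The groups were clearly apart, and the gene rose by a log2 fold change of 0.81 (standard error 0.11, edgeR adjusted p = 0.00102). Zfp934, Zfp850 and Zfp467 followed with log2 fold changes of 0.70, 0.68 and 0.66. Zfp934 and Zfp850 are KRAB genes. Zfp467 has no KRAB box and is known for directing marrow precursors towards fat rather than bone. It rose from 21.2 ± 2.22 to 33.5 ± 5.62 CPM (SD, n = 4 in each). The call for Zfp934 was kept in 2 of the 8 fits without a library, while those for Zfp850 and Zfp467 were kept in all 8.

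Zfp451 (chromosome 1, 33761545 to 33814595), a SUMO ligase that joins SUMO chains to nuclear proteins, was the most abundant gene in CPM among those called. It measured 224.5, 183.4, 177.1 and 180.5 CPM in Mettl3-CKO and 131.0, 124.0, 121.0 and 116.0 CPM in control. All Mettl3-CKO samples exceeded all controls, and Mettl3-CKO replicate 1 stood above the other samples of its group. The log2 fold change was 0.64 (standard error 0.092, edgeR adjusted p = 0.00143). Per length Zfp451 rose from 7.72 to 12.1 FPKM. These are the 10 genes with the largest rises among those whose groups did not overlap.

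The remaining 19 genes called higher had log2 fold changes from 0.58 (Zfp579) to 0.28 (Zfp746). In order they were Zfp579, Zfp62, Zfp65, Zfp386, Zfp628, Zfp229, Zfp553, Zfp35, Zfp141, Zfp334, Zfp668, Zfp606, Zfp974, Zfp770, Zfp882, Zfp760, Zfp46, Zfp318 and Zfp746. Zfp668 is known as a factor of DNA repair, Zfp318 for controlling IgD expression in B cells, and Zfp746 (PARIS) as a repressor that parkin marks for degradation. Zfp746 had narrow groups, with 63.99 ± 2.95 CPM in Mettl3-CKO and 52.8 ± 1.03 CPM in control (SD, n = 4 in each). Zfp606 was the exception among the 29, because its groups overlapped: Mettl3-CKO replicate 2 measured 88.5 CPM and control replicate 1 measured 91.1 CPM. Its call was kept in 2 of the 8 fits without a library. The other 28 had groups that did not overlap. Over all 288 genes, 41 were separated upwards and 7 downwards, where 9.76% and 7.58% of all genes tested were. Reads of 4 called genes could be shared with an overlapping gene at 1 CPM or more, namely Zfp553 with Sept1, Zfp668 with Zfp646, Zfp882 with Zfp617 and Zfp318 with AC151275.1, since no source used here says whether counting used strand.

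**Figure D2:**
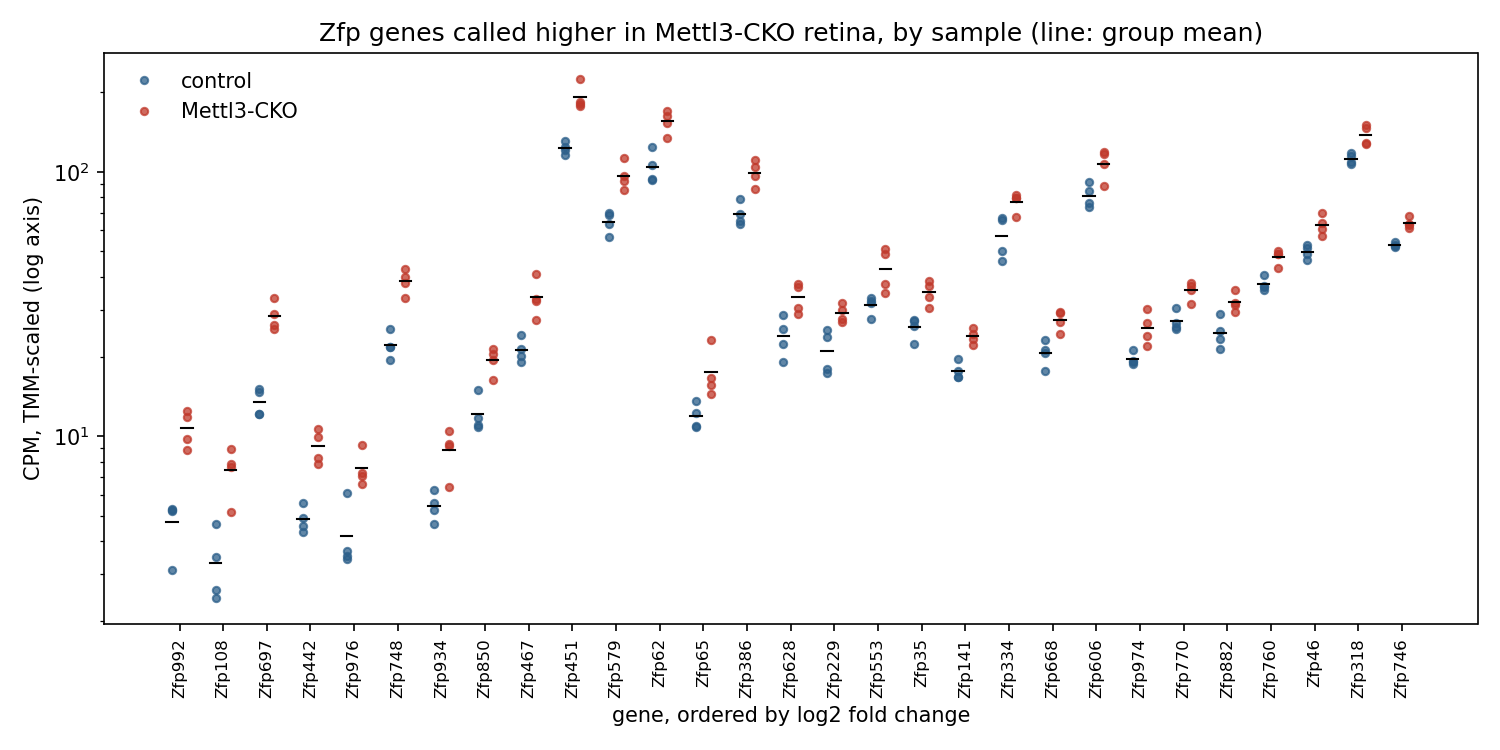
Points give TMM-scaled CPM on a logarithmic axis for each of the 4 control (blue) and 4 Mettl3-CKO (red) samples of the 29 genes called higher, ordered by log2 fold change, with group means as black lines. The groups do not overlap in 28 of them, from Zfp992 near 5 CPM in control to Zfp451 at 116.0 to 131.0 CPM in control. They overlap only in Zfp606.

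The 7 genes separated downwards were Zfp112, Zfp263, Zfp458, Zfp512, Zfp653, Zfp672 and Zfp773, with log2 fold changes between -0.13 and -0.43 and edgeR adjusted p from 0.0699 to 0.304. Zfp112, a KRAB gene, had the lowest value of the family, with 5.42, 7.31, 7.33 and 8.06 CPM in Mettl3-CKO and 9.42, 9.49, 9.70 and 9.37 CPM in control (log2 fold change -0.43, adjusted p = 0.0720 from edgeR). None of these passed the edgeR test over all genes. Zfp69 showed a pattern of its own, picked out after its values were seen: Mettl3-CKO replicate 2 measured 16.6 CPM and the other 7 samples 3.48 to 4.81 CPM. Its log2 fold change of 0.96 (standard error 0.41) rested on that library and was not called (edgeR adjusted p = 0.170).

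Fingers were sought in the longest translated coding sequence of each gene, and KRAB boxes and SCAN domains in all of its complete ones. All 288 genes had a translation. C2H2 fingers were found in 283 genes, with a median of 11 and at most 36, and 166 genes (57.6%) held a KRAB box and 13 a SCAN domain. Among all 21501 translated protein-coding genes 1.53% held a KRAB box. Of the KRAB genes 16 of 166 were called higher (9.64%), with a median log2 fold change of 0.094, and of those without KRAB 13 of 122 (10.7%), with a median of 0.066. Of the 13 SCAN genes 0 were called. Leaving out a library moved the KRAB count between 6 (without Mettl3-CKO replicate 1 or without control replicate 2) and 25 (without control replicate 1), with 9 without Mettl3-CKO replicate 3 and 10 without Mettl3-CKO replicate 2, without Mettl3-CKO replicate 4 or without control replicate 4. With all members counted, the shares of genes with and without KRAB were close to each other, and their difference was not tested. The 16 KRAB genes called include Zfp992, Zfp108, Zfp442 and Zfp976, which passed the limit of 5 CPM only through their Mettl3-CKO mean. The KRAB share thus follows in part from the rule, and a share without these genes was not computed.

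Called genes were more frequent among the proteins with many fingers. Of genes with 0 to 4 fingers 2 of 41 were called higher (4.88%), with 5 to 9 fingers 4 of 82 (4.88%), with 10 to 14 fingers 12 of 103 (11.7%) and with 15 or more 11 of 62 (17.7%). Fingers of such proteins are usually encoded together in the last exon, and the last exon followed the same order. Above the family's median last exon of 2596 bases, 23 of 144 genes were called higher (16.0%), and at or below it 6 of 144 (4.17%). Without control replicate 4 these counts were 14 and 3, and those by rising finger number 0, 4, 7 and 6. Leaving out a library moved the count above the median last exon between 8 (without Mettl3-CKO replicate 1 or without control replicate 2) and 32 (without control replicate 1), and that of genes with 15 or more fingers between 4 and 14 with the same libraries. The same division of the other protein-coding genes at 5 CPM or more gave 301 of 2773 called higher (10.9%) and 103 called lower (3.71%) above that length, and 605 of 8518 higher (7.10%) and 440 lower (5.17%) at or below it. In 193 other genes with 3 or more fingers at 5 CPM or more, which carry other names, 28 were called higher (14.5%) and 7 lower (3.63%), with a median log2 fold change of 0.070. Of the 112 with the longer last exon 20 were higher and 1 lower, and of the 81 with the shorter one 8 were higher and 6 lower. These are counts with no test of their difference. Those of the Zfp genes include Zfp992, Zfp108, Zfp442 and Zfp976, which passed the limit of 5 CPM only through their Mettl3-CKO mean. The counts by finger number and last exon thus follow in part from the rule, and counts without these genes were not made. The called genes had a lower GC content in their transcripts than the other Zfp genes, with a median of 41.4% against 46.1%.

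**Figure D3:**
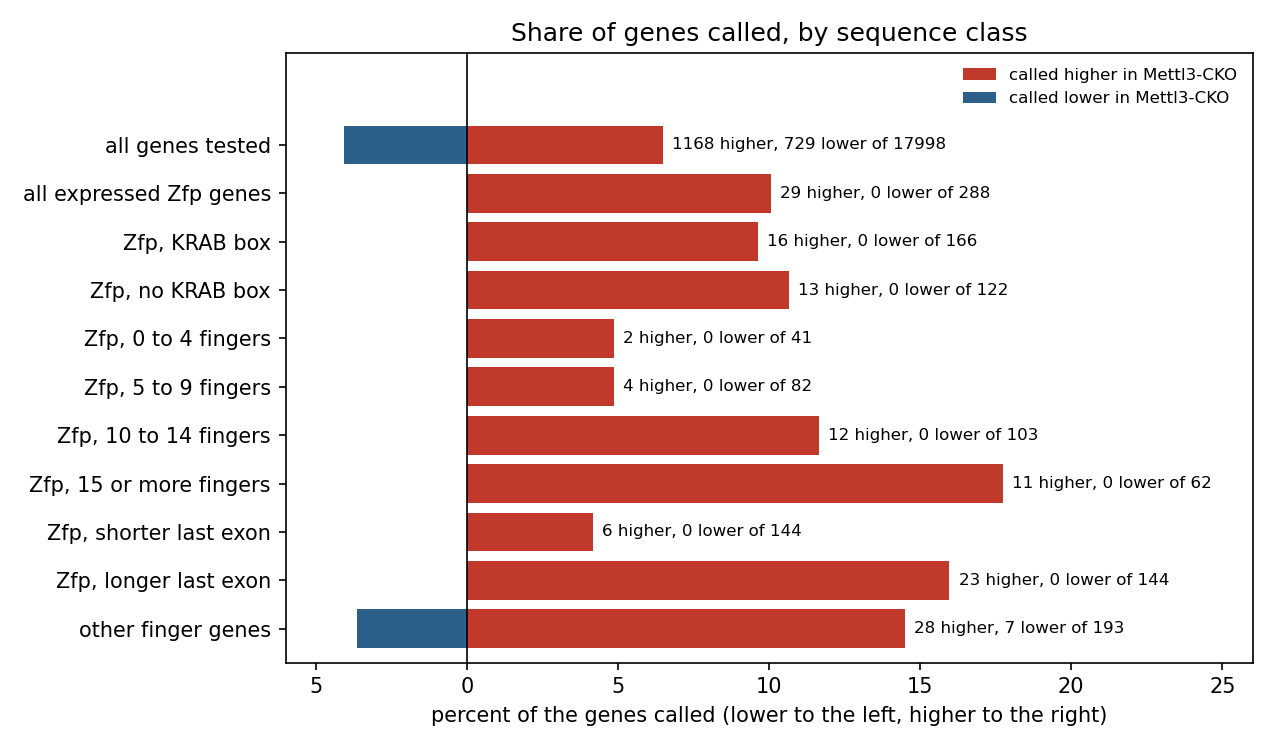
Bars give the percentage of genes called higher (red, to the right) or lower (blue, to the left) in Mettl3-CKO among all genes tested, the expressed Zfp genes, their classes by KRAB box, finger number and last exon length, and other genes with 3 or more fingers. The share called higher was 4.88% in the classes with fewer than 10 fingers and 17.7% with 15 or more, and Zfp genes have no bar to the left because 0 were called lower. The called Zfp genes include Zfp992, Zfp108, Zfp442 and Zfp976, which passed the limit on level only through their Mettl3-CKO mean.

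The stretch that joins neighbouring fingers is the most conserved part of these genes. No such stretch was extracted for Zfp467, Zfp451 and Zfp579, which are among the genes called in every fit. The sequences below are shown because the 5 genes named share it. Each is the first such linker in 5 of the 11 genes called in every fit, read from the GENCODE vM21 transcript on GRCm38 from 5′ to 3′, with the bases that encode the linker in capitals.
Zfp992 (chr4:146466607-146466633, plus strand): catACAGGAGAGAAACCTtacaaatgt
Zfp108 (chr7:24260892-24260918, plus strand): cacACAGGGGAGAAGCCCtacaggtgc
Zfp697 (chr3:98427908-98427934, plus strand): cacACGGGCGAGAAGCCCtacccgtgc
Zfp748 (chr13:67541886-67541912, minus strand): cacACTGGGGAGAAACCTtacaaatgt
Zfp850 (chr7:27990176-27990202, minus strand): cacACTGGAGAGAAGCCCtatgaatgt
The called genes held a median of 8 such linkers and those not called a median of 5. A near-identical stretch in the coding sequence of another gene was found for 7 of the 288 genes, of which 2 (Zfp992 and Zfp442) were called. Only the longest complete coding sequence of each protein-coding gene was searched, so other copies in the genome were not covered. Among the 281 genes with no such copy 27 were called higher and 0 lower, and 15 higher without control replicate 4.

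The letters GGACT, the common core of m6A sites, were counted in the mRNA strand of each gene's transcript. They occurred in 91.0% of the Zfp transcripts, in 92.5% of the protein-coding genes at 5 CPM or more and in 87.5% of all 21501 transcripts examined. Their median density was 0.817 per kb in Zfp genes, 1.05 per kb in the protein-coding genes at 5 CPM or more and 1.02 per kb in all. Of Zfp genes above their own median density 12 of 144 were called higher, and of those at or below it 17 of 144, counts that were 7 and 10 without control replicate 4. Zfp442, Zfp976 and Zfp934 rose without any GGACT in the transcript examined. Within 100 bases of the stop codon the letters stood in 43 of 288 Zfp genes (14.9%) and in 25.0% of the protein-coding genes at 5 CPM or more. In the called genes they stood there in 7 of 29 (24.1%) and in the others in 36 of 259 (13.9%). Of the 43 genes 2 were called higher without control replicate 4, 0 without Mettl3-CKO replicate 1 or without control replicate 2, and 9 without control replicate 1. The 7 stretches are shown because they lie where the mark is known to collect, with GGACT in capitals.
Zfp553 (chr7:127237028-127237054, plus strand): agtcaccagctGGACTggagtgatggg
Zfp318 (chr17:46413757-46413783, plus strand): tataacagtcaGGACTacttaaatgga
Zfp46 (chr4:136291228-136291254, plus strand): cgggtaagaaaGGACTcgtttggaggc
Zfp141 (chr7:42475013-42475039, minus strand): tcttttgctaaGGACTcatctctccaa
Zfp746 (chr6:48063869-48063895, minus strand): tgtgactgactGGACTtgtggcctaag
Zfp628 (chr7:4921964-4921990, plus strand): ggctgctggctGGACTtgctaataaag
Zfp334 (chr2:165379986-165380012, minus strand): tgtcagcacggGGACTactactgacga
The distance from the stop codon was -9, -16, 26, -37, -50, 80 and 83 bases in this order, where negative values lie before it. Methylation was not measured in these samples, and a match of letters is a description and not a methylated site.

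Zfp genes lie in clusters, the product of repeated duplication. With neighbours at most 500 kb apart and at least 5 genes in a run, 12 clusters held 113 of the 288 genes. Chromosome 7 alone held 75 genes, of which 10 were called higher (13.3%). Of the genes in clusters 12 were called higher (10.6%). These shares stood near the 10.1% of all 288 genes, where 6.49% of all genes tested were called higher. Without control replicate 4 these counts were 4 on chromosome 7 and 6 in clusters. In the largest, on chromosome 17 (21008903 to 23599487), 2 of 20 genes were called and the median log2 fold change was 0.019. In the next, on chromosome 7 (29768552 to 30169750), 0 of 14 were called. All 10 genes of the cluster on chromosome 7 from 127233061 to 127885996 had log2 fold changes above 0, from 0.0043 (Zfp688) to 0.46 (Zfp553), and 2 of them, Zfp553 and Zfp668, were called. The cluster on chromosome 7 from 6131491 to 6396915 had 1 of 6 values above 0 and a median of -0.13. Genes of a cluster are related in sequence and are not independent of each other.

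Of 33 Zfp genes listed for a known role, 1 passed the edgeR test (3.03%) and was higher. DESeq2 called 3 higher (9.09%), as did edgeR with the replicate number as a block. Voom called 5 higher (15.2%), as did edgeR without control replicate 1. The shares called higher over all genes tested were 6.49% with edgeR, 8.0% with DESeq2 and 11.9% with voom. Zinc fingers that act on RNA were represented by 8 of 10 listed genes, and 0 of them were called in either direction by edgeR, DESeq2 or voom (1 was higher at an unadjusted p under 0.05 in edgeR). Their log2 fold changes ran from -0.15 (Zfp346, which binds double-stranded RNA) to 0.27 (Zfp830). Zfp598, which marks collided ribosomes, had -0.017, and Zfp207, which helps load Bub3 on the kinetochore, had 0.042. Of 12 zinc fingers known from neural or eye development, 0 were called by edgeR, 1 was higher with DESeq2 and 2 with voom, and 2 were higher in edgeR at an unadjusted p under 0.05. Zfp644, whose human counterpart is linked to myopia, measured 128.5, 106.9, 125.1 and 126.8 CPM in Mettl3-CKO and 101.6, 91.3, 100.9 and 106.4 CPM in control. Its groups met without overlapping and its log2 fold change was 0.28 (standard error 0.088, edgeR adjusted p = 0.0590). It passed with DESeq2 (adjusted p = 0.0267), voom (0.00838) and the replicate block (0.0433). Zfp24, which is needed for myelination, had 0.20 with groups that did not overlap (adjusted p = 0.125 in edgeR and 0.0158 in voom). Zfp408 and Zfp513, both linked to inherited retinal disease, had -0.24 and 0.20 with overlapping groups. Without control replicate 1 Zfp408 was called lower (log2 fold change -0.34, edgeR adjusted p = 0.0475).

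Among the remaining neural genes Zfp536, a repressor of neuronal differentiation, ranged from 106.3 to 197.3 CPM within the controls alone, a wider range than between the group means, and had a log2 fold change of -0.022. Zfp462 and Zfp521 had 0.15 and 0.18, and Zfp335, Zfp423, Zfp488, Zfp503 and Zfp703 had values between -0.18 and 0.11. Of the 13 genes present from 16 zinc fingers listed for chromatin or pluripotency, Zfp451 was called higher and 0 were called lower by edgeR, while DESeq2 called 2 higher and voom 3. Zfp57 and Zfp445, which keep methylation at imprinted genes, had log2 fold changes of 0.025 and 0.063. Zfp809 and Zfp568, KRAB proteins known for silencing a retrovirus and an Igf2 promoter, had 0.31 and 0.21 and were not called (adjusted p = 0.174 and 0.226 in edgeR). Zfp64 had groups that did not overlap, with a value of 0.33 (edgeR adjusted p = 0.0656, 0.0461 with DESeq2, 0.0207 with voom and 0.0422 with the replicate block). Zfp410, the activator of Chd4, had -0.065. Zfp91, Zfp143, Zfp148, Zfp217, Zfp281 and Zfp932 had values between -0.13 and 0.20, of which Zfp148, at 0.20, passed with voom (adjusted p = 0.0140).

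None of the 5 most abundant Zfp genes per length passed the test. Zfp445 led with 57.9 FPKM over all samples, followed by Zfp146, a protein made almost wholly of fingers, with 45.2 FPKM, Zfp207 with 44.7 FPKM, Zfp422 with 39.5 FPKM and Zfp740 with 39.1 FPKM. The ranges of Zfp445 were 429.6 to 457.6 CPM in Mettl3-CKO and 400.3 to 462.6 CPM in control, and those of the other 4 genes overlapped too. Their log2 fold changes lay between -0.10 (Zfp740) and 0.18 (Zfp422). At the lower limit, Zfp58 and Zfp583 stood just inside with mean levels of 5.10 and 5.19 CPM, and Zfp300 and Zfp964 just outside with 4.87 and 4.86 CPM. Zfp300 averaged 7.08 CPM in Mettl3-CKO and 2.67 CPM in control. Of the 41 Zfp genes under the limit that were tested, 4 were called higher (9.76%) and 0 lower. Over all genes tested 6.49% were called higher and 4.05% lower.

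Through TRIM28 the KRAB proteins depend on a shared repressor machinery, of which 33 of 35 listed genes were tested. Setdb1, the H3K9 methyltransferase of this pathway, rose by more than any other of the 33. It lies on chromosome 3 from 95323525 to 95357202 and measured 207.4, 179.3, 162.5 and 169.4 CPM in Mettl3-CKO and 91.5, 106.7, 97.5 and 95.8 CPM in control. Every Mettl3-CKO sample was far above every control. The log2 fold change was 0.88 (standard error 0.094, edgeR adjusted p = 0.000314), a 1.84-fold rise that passed the test in each of the 8 fits without a library. Trim28 itself had 309.3 ± 41.5 CPM in Mettl3-CKO and 337.1 ± 31.5 CPM in control (SD, n = 4 in each) with overlapping groups (log2 fold change -0.12, adjusted p = 0.519 in edgeR). Atf7ip, the partner that stabilizes SETDB1, had -0.22, and the heterochromatin proteins Cbx1, Cbx3 and Cbx5 had 0.16, 0.092 and -0.020, none of them called.

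Of the 12 subunits of NuRD, a remodelling and deacetylase complex that TRIM28 also recruits, Mta2 was called lower, with 141.1 to 155.2 CPM in Mettl3-CKO and 173.7 to 177.8 CPM in control. Its log2 fold change was -0.26 (standard error 0.072, edgeR adjusted p = 0.0375). This call was kept without Mettl3-CKO replicate 2 (adjusted p = 0.0457 in edgeR) and without control replicate 1 (0.0196) and lost in the 6 other fits without a library, where the adjusted p reached 0.124. None of the 4 tested genes of the HUSH complex, which spreads H3K9 methylation, and none of the 8 other H3K9 and heterochromatin factors was called. Uhrf1, which couples H3K9 methylation to DNA methylation and is a gene of dividing cells, had groups that did not overlap, at 119.3 to 160.8 CPM in Mettl3-CKO and 79.9 to 117.5 CPM in control (log2 fold change 0.40, edgeR adjusted p = 0.0666). Over the 33 genes 1 was called higher and 1 lower (3.03% each), where 6.49% of all genes tested were called higher and 4.05% lower. The median log2 fold change of the 33 was -0.0026.

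**Figure D4:**
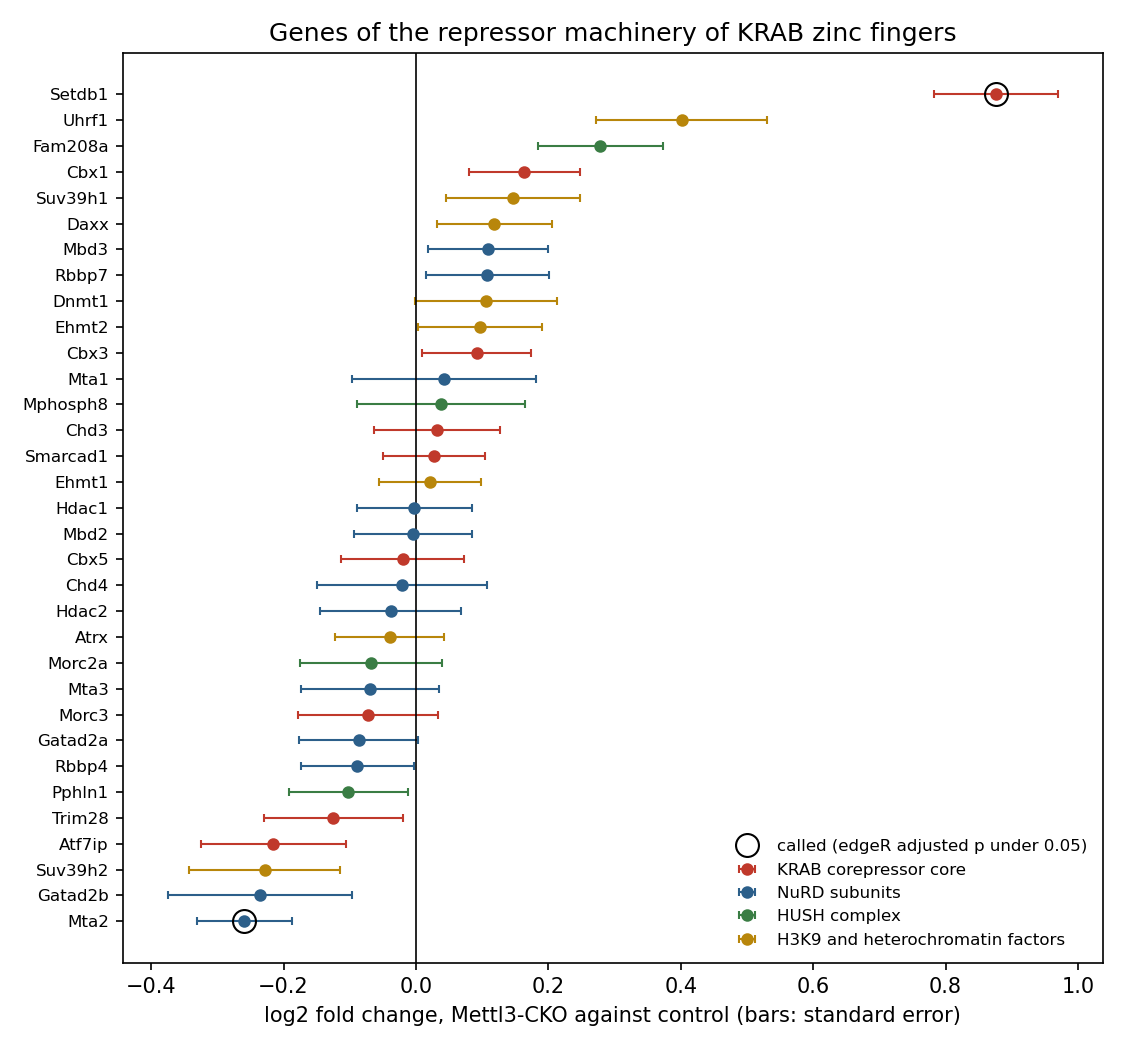
Points give the log2 fold change of Mettl3-CKO against control with its standard error for 33 genes of the KRAB repressor machinery, coloured by complex, and circles mark the genes called by edgeR. Setdb1 stands apart at 0.88, Mta2 is the lowest at -0.26, and Trim28 lies at -0.12.

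Summed over the 288 genes, the level was 14402, 14175, 14217 and 14394 CPM in Mettl3-CKO and 13340, 12972, 13626 and 13890 CPM in control. The groups did not overlap in this sum. The median gene, set against the mean of the controls on the log2 scale, stood at 0.086, 0.034, 0.11 and 0.14 in Mettl3-CKO and at -0.0074, -0.088, 0.021 and 0.082 in control, and there control replicate 4 lay above Mettl3-CKO replicate 2. Markers of dividing cells separated the same groups. The 12 proliferation markers summed to 2804, 2703, 2523 and 2089 CPM in Mettl3-CKO and 1526, 1990, 1730 and 1737 CPM in control, again without overlap, and 4 of the 12 were called higher and 0 lower. The part of proliferating cells in the levels of the Zfp genes was not tested. For all marker lists here, the shares over all genes tested were 6.49% called higher and 4.05% lower. Vascular markers were called lower for 6 of 8 genes, with a median log2 fold change of -1.32 and 1 value above 0, at 0.023. Their sums, over all 10 listed genes, did not show this fall. They were 535.1 to 638.9 CPM in Mettl3-CKO and 534.2 to 648.7 CPM in control. A sum follows its most abundant genes, while the calls count each gene alike. Of 7 tested markers of Müller glia 1 was called higher and 1 lower, and of 3 erythrocyte genes 2 were called lower, with summed levels of at most 26.3 CPM. Lens genes were called lower for 4 of 6, the high values lying in control replicate 4. None of the markers was at 0 over all 8 libraries.

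**Figure D5:**
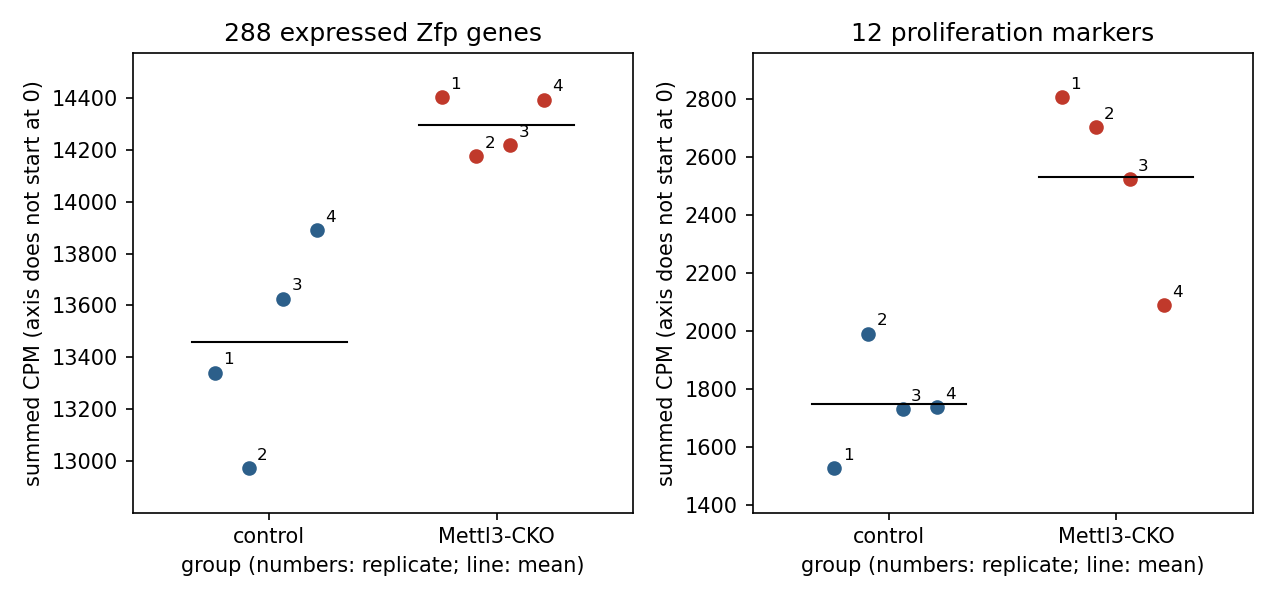
Points give for each sample the summed CPM of the 288 expressed Zfp genes (left) and of 12 proliferation markers (right), numbered by replicate, with group means as lines, on axes that do not start at 0. Zfp sums were 14175 to 14402 CPM in Mettl3-CKO against 12972 to 13890 CPM in control, and marker sums 2089 to 2804 CPM against 1526 to 1990 CPM.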

How the data were processed

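Gene counts of 8 retinal RNA-seq libraries were compared between Mettl3-CKO and control, with groups taken from the sample labels (n = 4 in each). The authors prepared libraries with the NEBNext Ultra kit, mapped the reads to GRCm38 (mm10) with HISAT2 and obtained a count for each gene from featureCounts. The deposited values used here are these raw counts. The strand setting and annotation release were not given in the sources used here. The test was edgeR 4.0.16 under R 4.3.3 over all genes (filterByExpr, TMM, quasi-likelihood test, Benjamini-Hochberg adjustment, threshold 0.05). Standard errors were taken from the log2 fold change and the root of its F statistic. Alternatives were DESeq2 1.42.0 and limma 3.58.1, beside other scalings, no filter, a replicate block, other limits on level, and fits without each library. On counts simulated for this comparison (17998 genes, 200 changed), edgeR called 74.7% of the genes changed 2-fold and 99.1% of those changed 4-fold, with 9 unchanged genes called.

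KRAB and SCAN were found with profile searches (HMMER 3.4, E-value under 1e-05) in GENCODE vM21 translations, used in place of RefSeq proteins. All complete translations of a gene were searched, and a match in any of them counted. Fingers, linkers, lengths and GGACT came from the transcript with the longest coding sequence. Near copies were sought with BLAST 2.17.0 among these longest coding sequences. No 2 samples were counted as 1, since the lowest chi-square between samples was 5.01 per gene. Named are the 10 largest rises and falls among called genes with separate groups, the 5 highest levels per length, the genes at the limit, the role lists, Trim28, Setdb1, called partners, Mettl3 and, added after their values were seen, other genes called or mentioned. Members, lists and classes were chosen with earlier results of these data known. The depth of 16227095 to 20281517 counts per sample limits counting error only.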

Additional observations from a re-analysis of the deposited data

Results flagged for a closer look

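Among the named genes and Mettl3, 140 groups of 4 samples were examined for a sample far from the other 3 on the log2 CPM scale, and 10 had such a sample, where chance gives about 7.0. Chance flags about 1 in 20 groups. Control replicate 2 was low for Zfp992, at 1.693 against 2.41 to 2.43 in the other controls, and without it the call was kept. Control replicate 1 was high for Zfp976, at 2.634 against 1.82 to 1.92. Mettl3-CKO replicate 1 was high for Zfp451, at 7.811 against 7.47 to 7.52. Zfp334 was also called, and its Mettl3-CKO replicate 2 was low at 6.08, with the others at 6.31 to 6.35. Without that library its log2 fold change was 0.49 and it no longer passed (edgeR adjusted p = 0.0512).

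The other 6 concern genes that were not called. Mettl3-CKO replicate 2 was low for Zfp644 at 6.741 and high for Zfp57 at 6.583. Mettl3-CKO replicate 1 was low for Zfp217 at 4.311 and high for Zfp638 at 7.849. Control replicate 1 was low for Zfp462 at 7.262 and for Zfp326 at 6.644. Causes were not tested.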

How the results depend on the processing

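The number of Zfp genes called higher was 29 and stayed within 1.5 times of that with other scalings (29), with DESeq2 (36), without a filter (32) and with limits of 1 CPM (33), 10 CPM (24) or 5 CPM in both means (25). It moved to 55 with limma voom, and from 11 to 47 when a library was left out. Genes called lower were 0, but 1 with DESeq2, 6 with voom and 0 to 4 without a library. KRAB genes moved to 31 higher and 2 lower with voom and from 6 to 25 higher without a library. Corepressor partners moved from 1 to 3 higher with DESeq2 and with voom and to 2 without the filter, and from 1 lower to 3 with voom and 0 without the filter; without a library, 1 to 2 were higher and 0 to 3 lower. Mettl3 passed the threshold with DESeq2 (-0.38) and voom (-0.39), and ran from -0.49 to -0.31 without a library. Replicate numbers are shared by both groups. Same-numbered samples correlated at -0.11, 0.22, -0.11 and 0.25, and differently numbered ones at -0.23 to 0.26. These values cannot settle whether samples of the same number were paired. With the replicate block 30 Zfp genes and 19 KRAB genes were called higher, 0 partners lower and Zfp536 turned to 0.010. Voom turned Zfp503 (-0.030), Zfp326 (-0.025) and Zfp57 (-0.022). Genes near 0 changed sign without a library, over ranges of -0.0013 to 0.11 for Zfp207, -0.12 to 0.14 for Zfp583, -0.047 to 0.25 for Zfp217, -0.037 to 0.18 for Zfp503, -0.0073 to 0.10 for Zfp106, -0.028 to 0.077 for Zfp326, -0.045 to 0.060 for Zfp57, -0.081 to 0.053 for Zfp598, -0.18 to 0.092 for Zfp536 and -0.25 to 0.0089 for Zfp143. No called gene changed sign. The causes were not tested.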
